A study of Mus musculus with 3 samples.

Results

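A set of 50 genes that run the cell division cycle was followed in blastocysts of the strains B6 and NOD. The genes were taken by symbol from a list of cyclins, kinases, replication factors and mitotic proteins, and all 50 were among the 24063 genes of the count table. They were separated by role into 12 genes of the G1 cyclins, kinases and their regulators, 13 genes of replication licensing and S phase, 10 genes of mitotic entry, and 15 genes of chromosomes, spindle, checkpoint and exit from mitosis. The study sequenced 1 library from a blastocyst of C57BL/6 (B6), an inbred strain without autoimmune diabetes, and 2 libraries from blastocysts of NOD, an inbred strain that develops autoimmune diabetes spontaneously. The labels give no treatment and no introduced allele for either strain. The labels describe whole blastocysts, whereas the text of the study describes single inner cell masses (ICMs), freed by immunosurgery. Values are therefore given for blastocysts and not for a tissue of the blastocyst. B6 has 1 library, so that replicate error could be measured in NOD alone.

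The cell cycle is driven by cyclin-dependent kinases (CDKs), each switched on by a cyclin whose level rises and falls once per cycle. D-type and E-type cyclins act before DNA replication, where they inactivate the retinoblastoma protein and release E2F transcription factors, and A-type and B-type cyclins act in S phase, G2 and mitosis. Origins of replication are licensed by loading of the MCM helicase, chromosomes are then segregated by a spindle that a checkpoint supervises, and the anaphase-promoting complex ends mitosis by marking cyclin B for destruction. Pluripotent mouse cells are known for a short G1 phase, with little cyclin D and abundant cyclin E.

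The depth was 12505685 counts on genes for B6, 33891715 for NOD 1 and 36171013 for NOD 2. Levels are given as CPM, counts per 1000000 of the library after scaling with edgeR's TMM factors, where 3 counts, the upper limit for a gene at 0, correspond to 0.220 CPM (B6), 0.0908 (NOD 1) and 0.0882 (NOD 2). Each of the 50 genes had at least 3 counts in every library and passed the filter on low counts. Of 8 markers of the ICM and epiblast, 4 rose (beside 10.3% of all genes tested) and 1 (Sox2) fell (beside 7.39%) in NOD, and their summed level was 1327 CPM in B6 against 3039 in NOD 1 and 4018 in NOD 2. All 7 trophectoderm markers tested were lower in both NOD libraries (beside 39.4% of all genes tested) without any passing as changed, with a summed level of 3038 CPM in B6 against 1725 in NOD 1 and 1582 in NOD 2. The 5 primitive endoderm markers summed to 391.5, 118.5 and 158.4 CPM, with Gata6 down-regulated and Pdgfra up-regulated, the 5 oocyte and cumulus markers to 31.6, 10.5 and 6.08, the 7 leukocyte markers to 0.294, 0.363 and 1.03, and the 2 erythroid markers to 0.661, 0.756 and 0.999. The trophectoderm marker Elf5, the primitive endoderm marker Sox17 and the oocyte marker Bmp15 were at 0 in B6. Sox17 was also at 0 in NOD 1 and Bmp15 in NOD 2. The leukocyte markers Ptprc, Lyz2, Fcer1g and Cd79a were at 0 in every library. The part of these marker differences in the values below was not tested. Fewer cells of a type and less RNA per cell cannot be told apart in these libraries.

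NOD blastocysts had more transcript of 8 of the 50 genes and less of 2. Cdk4, Ccne2, Gmnn, Tyms, Ccna2, Ccnb2, Aurka and Birc5 were up-regulated, from 2.003-fold for Birc5 to 3.86-fold for Ccne2, and Rrm1 and Incenp were down-regulated. Up- and down-regulation here means at least a 2-fold change with an adjusted p under 0.05 in edgeR's quasi-likelihood test, where the p-values were adjusted by Benjamini and Hochberg's method over all 14456 genes tested, and SE is the standard error of a log2 fold change. The 8 genes are 16% of the 50, beside 10.3% of all genes tested that were up-regulated, and the 2 genes are 4%, beside 7.39% of all genes that were down-regulated. In 24 genes both NOD libraries lay above B6, beside 45.3% of all genes tested, in 21 genes both lay below, beside 39.4%, and in 5 genes B6 lay between them, beside 2217 of all 14456 genes that had neither pattern. The median log2 fold change of the 50 genes was 0.09, beside 0.26 for all genes tested, and the values ran from -2.67 (Ccnd2) to 3.73 (Cdk6). The gap between these medians was not firm, since the members had 0.12 beside 0.18 for all genes without NOD 1 and 0.07 beside 0.11 without NOD 2, and with a minimum count of 50 it shrank from -0.17 to -0.02.

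These calls were sensitive to scaling and to the test. With libraries scaled by total counts only, 3 genes were up-regulated (Aurka, Ccne2 and Ccnb2, beside 7.17% of all genes) and 4 were down-regulated (Rrm1, Incenp, Ube2c and Mcm7, beside 7.83%). With upper-quartile factors Aurka and Ccnb2 were up-regulated (beside 7.03% of all genes) and no member was down-regulated (beside 4.85%). DESeq2's size factors in edgeR kept all but Birc5 (beside 10.2% up and 8.27% down). With 1 dispersion for all genes (beside 8.52% up and 9.5% down) or a minimum count of 50 (beside 16.5% and 13.5%), the 8 and the 2 genes were called, and Top2a, Wee1 and Mcm7 were down-regulated in addition. DESeq2 called 9 genes up-regulated and 7 down-regulated (beside 18.5% and 14.8%), among them the 10 genes except Birc5, and in addition Mcm4 and Aurkb were up-regulated and Ccnd1, Bub1b, Top2a, Wee1 and Mcm7 were down-regulated. No member passed with limma-voom, where 16 had an unadjusted p under 0.05, or in edgeR when genes with low counts were kept, where 19 had. Each of the 10 genes kept its direction in every setting and without either NOD library.

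**Figure D1:**
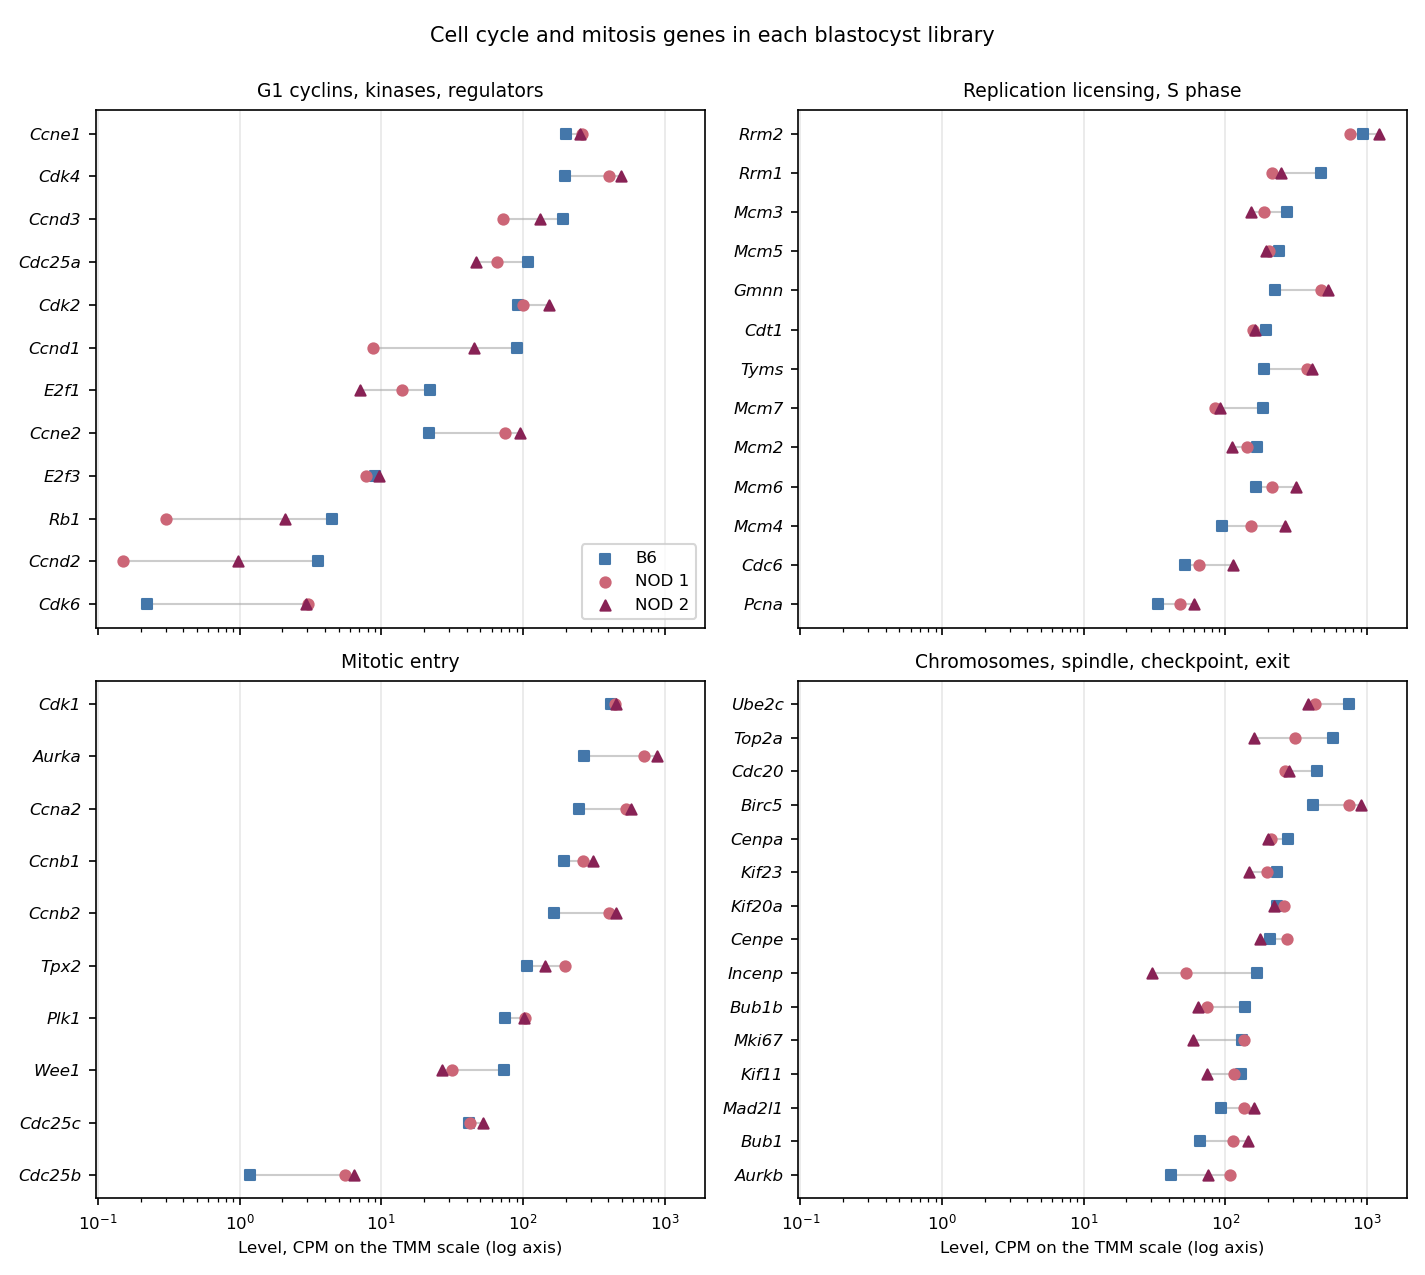
Level of each of the 50 genes in the 3 libraries, in CPM on a log axis, with genes in 4 role groups and in order of their B6 level. Squares are B6, circles NOD 1 and triangles NOD 2, and grey lines join the lowest and highest library of a gene. Aurka, Ccna2 and Ccnb2 lie to the right of B6 in both NOD libraries, and the D-type cyclins Ccnd1, Ccnd2 and Ccnd3 to the left.

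**Figure D2:**
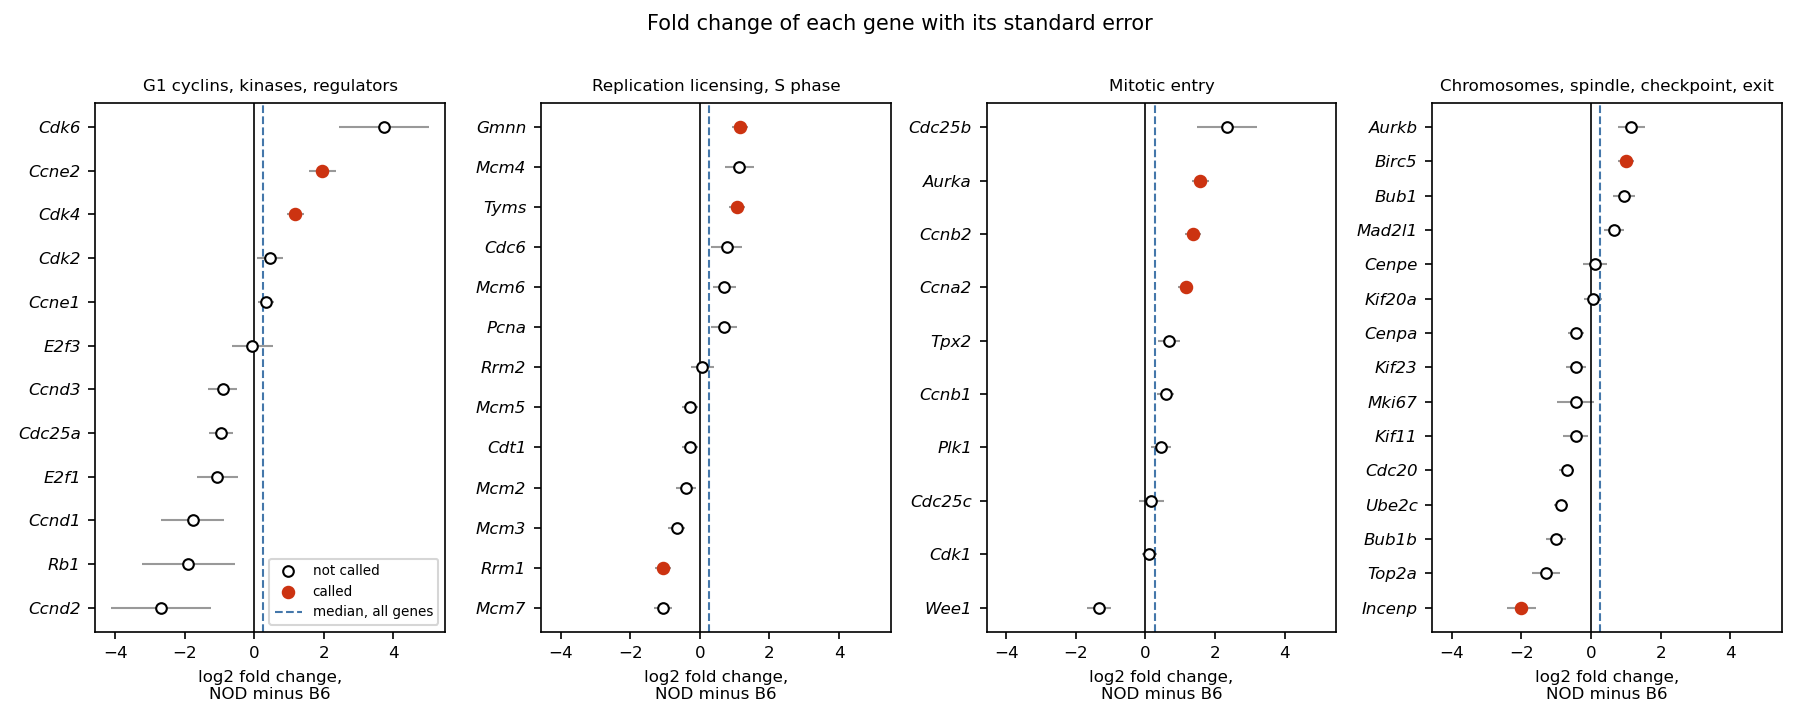
Log2 fold change of NOD over B6 for each gene by role group, with bars of 1 standard error. Filled points are the 10 called genes, the solid line is 0 and the dashed line is the median of all genes tested (0.26). In the mitotic entry group 9 of 10 points lie above 0, and among the 15 genes of chromosomes, spindle, checkpoint and exit 9 lie below 0.

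Of the 12 G1 genes, Cdk4 and Ccne2 were up-regulated (16.7%, beside 10.3% of all genes), none was down-regulated (beside 7.39%) and 10 were not called. Their median log2 fold change was -0.48, and it was -0.21 without NOD 1 and -0.44 without NOD 2. Of these genes, 5 lay above B6 in both NOD libraries (beside 45.3% of all genes) and 6 lay below (beside 39.4%). In 1 gene B6 lay between the NOD libraries. Cdk4 encodes the kinase partner of the D-type cyclins. It lies on chromosome 10 of mm10 (NM_009870, 127063603 to 127067282) and had 198 CPM in B6 (2692 counts) against 406 in NOD 1 and 490 in NOD 2. Both NOD libraries were above B6 by more than their own distance, with a log2 fold change of 1.18 (SE 0.25, adjusted p = 0.0426). Cdk6, the other kinase of this pair, had 3 counts in B6 and 100 in each NOD library, a ratio of 13.5 with an exact Clopper-Pearson 95% interval from 4.57 to 66.2 for counting error only, and did not pass (adjusted p = 0.104).

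The D-type cyclins did not pass the test. B6 had the highest level of each, as it had in 39.4% of all genes tested. Ccnd1 had 91.2 CPM in the B6 library, with 8.71 in NOD 1 and 44.8 in NOD 2, a log2 fold change of -1.77 with a standard error of 0.91. Ccnd2 was scarce throughout, with 3.60 CPM in B6 (49 counts) against 0.151 in NOD 1 (5 counts) and 0.970 in NOD 2 (33 counts). Ccnd3, the D-type cyclin with the highest level per length, had 191 CPM in the B6 library, with 72.1 in NOD 1 and 131 in NOD 2. For these cyclins the distance between the NOD libraries was large beside the distance from B6, and their adjusted p values were 0.212, 0.226 and 0.173 in that order.

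Both E-type cyclins, which activate Cdk2 at the start of S phase, were higher in both NOD libraries than in B6 (beside 45.3% of all genes). The passing difference was in Ccne2. Ccne2 (NM_001282943, chromosome 4, 11191709 to 11204779) had 21.9 CPM in B6 (298 counts) against 74.3 in NOD 1 and 94.6 in NOD 2. The log2 fold change of 1.95 with an SE of 0.39 (adjusted p = 0.0384) was the largest of the 8 up-regulated genes. Ccne1 had 201 CPM in B6 against 259 in NOD 1 and 251 in NOD 2 (adjusted p = 0.315). Per length, Ccne1 stood at 14.3 times the level of Ccne2 in B6, 5.40 times in NOD 1 and 4.11 times in NOD 2.

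Upstream of these kinases, Cdc25a, a phosphatase that removes inhibitory phosphates from Cdk2, had 108 CPM in B6 against 65.1 in NOD 1 and 46.4 in NOD 2 (adjusted p = 0.117). Cdk2 itself had 91.9 CPM in the B6 library, with 99.9 in NOD 1 and 153 in NOD 2 (adjusted p = 0.387). The retinoblastoma gene Rb1 was also scarce, with 4.48 CPM in B6 (61 counts) against 0.303 in NOD 1 (10 counts) and 2.09 in NOD 2 (71 counts). The activating factors E2f1, with 22.1, 14.0 and 7.11 CPM in B6, NOD 1 and NOD 2, and E2f3, with 9.03, 7.78 and 9.64, also did not pass (adjusted p = 0.237 and 0.953).

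**Figure D3:**
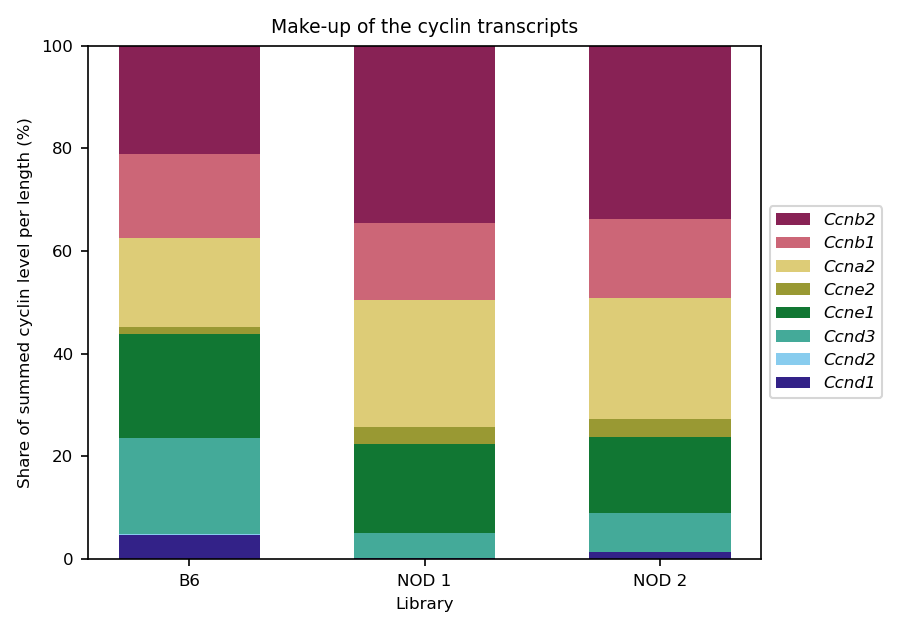
Share of each cyclin transcript in the summed level of 8 cyclins, per length, in each library, stacked to 100%. D-type cyclins made up 23.7% of the bar in B6, 5.08% in NOD 1 and 8.96% in NOD 2, and B-type cyclins 37.4%, 49.5% and 49.2%. Within the B-type sum the share of Ccnb2 was larger in both NOD libraries than in B6, and that of Ccnb1 slightly smaller.

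When levels were divided by transcript length, so that genes could be compared with each other within a library, the make-up of the cyclin pool differed between the B6 library and the NOD libraries. D-type cyclins held 23.7% of the summed level of 8 cyclins in B6, 5.08% in NOD 1 and 8.96% in NOD 2. B-type cyclins held 37.4%, 49.5% and 49.2%, and the A-type cyclin Ccna2 17.3%, 24.8% and 23.5%. The larger B-type share in NOD lay in Ccnb2, at 21.12% in B6, 34.51% in NOD 1 and 33.79% in NOD 2. Ccnb1 held slightly less in NOD, at 16.33%, 14.98% and 15.46%. Ccnd3 alone, which overlaps the down-regulated gene Bysl, held 18.9% in B6, 4.78% in NOD 1 and 7.59% in NOD 2. The summed share of E-type cyclins moved least, at 21.6%, 20.6% and 18.3%. Within that sum Ccne1 held less in NOD, at 20.1%, 17.4% and 14.7%, and Ccne2 more, at 1.41%, 3.22% and 3.58%. In each of the D-, B- and A-type shares the NOD libraries were closer to each other than to B6. These shares were not tested. An exact permutation test of 1 library against 2 cannot give a p under 0.333.

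Of the 13 genes of replication licensing and S phase, Gmnn and Tyms were up-regulated (15.4%, beside 10.3% of all genes), Rrm1 was down-regulated (7.69%, beside 7.39%) and 10 were not called. The median log2 fold change was 0.07, it was 0.39 without NOD 1 and -0.24 without NOD 2, and 6 genes lay above B6 in both NOD libraries (beside 45.3% of all genes) while 6 lay below (beside 39.4%). Gmnn encodes geminin, which binds the loading factor Cdt1 and prevents a second round of licensing. Its row (NM_020567, chromosome 13, 24751845 to 24761937) had 225 CPM in the B6 library (3061 counts), with 475 in NOD 1 and 529 in NOD 2 (log2 fold change 1.16, SE 0.23, adjusted p = 0.0382). Cdt1 had 194 CPM in B6 against 157 in NOD 1 and 162 in NOD 2 (adjusted p = 0.399), so that per length geminin transcripts stood at 2.60 times those of Cdt1 in B6, 6.81 times in NOD 1 and 7.35 times in NOD 2. Cdc6, which loads the helicase together with Cdt1, had 52.0 CPM in the B6 library, with 65.5 in NOD 1 and 112 in NOD 2 and did not pass (adjusted p = 0.253).

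The subunits of the MCM helicase, Mcm2 to Mcm7, form a ring of 6 different proteins, and none of their transcripts was called (beside 10.3% of all genes up and 7.39% down), while 3 had an unadjusted p under 0.05 in edgeR. Summed, they were level between the libraries, at 1119 CPM in B6 against 981.2 in NOD 1 and 1127 in NOD 2, but single subunits lay on opposite sides. Mcm4 had 94.5 CPM in the B6 library, with 151 in NOD 1 and 262 in NOD 2, a log2 fold change of 1.13 (adjusted p = 0.116). Mcm7 had 184 CPM in B6 against 84.9 in NOD 1 and 91.7 in NOD 2, a log2 fold change of -1.06 (adjusted p = 0.0550). Mcm6 also lay above B6 in both NOD libraries, at 0.70 on the log2 scale, while Mcm2, Mcm3 and Mcm5 lay below in both, at -0.41, -0.67 and -0.27. In all, 2 subunits lay above B6 in both (beside 45.3% of all genes) and 4 below (beside 39.4%). Mcm4 had the highest and Mcm7 the lowest log2 fold change of the 6 subunits, so that this pair is the most distant. Per length, Mcm4 stood at 0.343 times the level of Mcm7 in B6, 1.19 times in NOD 1 and 1.90 times in NOD 2. Mcm7 was called as down-regulated under several of the other settings named above, and 34.2% of the 50-base words of its transcript also occur in other genes.

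Enzymes that supply deoxynucleotides also differed among themselves. Rrm1, the large subunit of ribonucleotide reductase (NM_009103, chromosome 7, 102441695 to 102469771), had 474 CPM in the B6 library (6453 counts), with 212 in NOD 1 and 246 in NOD 2. It fell by 1.05 in log2 units (SE 0.23, adjusted p = 0.0433), and neither NOD library reached the B6 level. Rrm2, the small subunit, had 941 CPM in B6 against 762 in NOD 1 and 1219 in NOD 2 (adjusted p = 0.877), so that B6 lay between the NOD libraries. Tyms, thymidylate synthase, had 187 CPM in the B6 library (2548 counts), with 377 in NOD 1 and 406 in NOD 2 (log2 fold change 1.07, SE 0.23, adjusted p = 0.0438). Its counts stand on a transcript that RefSeq lists as non-coding (NR_033402, chromosome 5, 30058200 to 30073625). Pcna, the sliding clamp of the polymerases, had 33.3 CPM in B6 against 47.7 in NOD 1 and 59.9 in NOD 2 and did not pass (adjusted p = 0.236).

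Of the 10 genes of mitotic entry, Ccna2, Ccnb2 and Aurka were up-regulated (30%, beside 10.3% of all genes), none was down-regulated (beside 7.39%) and 7 were not called. Of the 10, 9 lay above B6 in both NOD libraries, beside 45.3% of all genes. Their summed level was 1593 CPM in the B6 library, with 2745 in NOD 1 and 3018 in NOD 2, and their median log2 fold change was 0.63. Of the called genes of this group, the largest rise belonged to Aurka, which encodes the Aurora kinase of centrosomes and spindle poles. Aurka (NM_011497, chromosome 2, 172356190 to 172370570) had 269 CPM in B6 (3663 counts) against 717 in NOD 1 and 890 in NOD 2 (log2 fold change 1.58, SE 0.25, adjusted p = 0.0277). Tpx2, which activates this kinase on spindle microtubules, had 107 CPM in the B6 library, with 197 in NOD 1 and 143 in NOD 2 and did not pass (adjusted p = 0.185).

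The A- and B-type cyclins together had 609.1 CPM in B6 against 1200 in NOD 1 and 1344 in NOD 2. Ccna2, cyclin A2 of S phase and G2 (NM_009828, chromosome 3, 36564865 to 36571996), had 250 CPM in the B6 library (3399 counts), with 532 in NOD 1 and 578 in NOD 2 (log2 fold change 1.15, SE 0.22, adjusted p = 0.0366). Ccnb2, a cyclin B associated with the Golgi apparatus (NM_007630, chromosome 9, 70407689 to 70421554), had 166 CPM in B6 (2263 counts) against 404 in NOD 1 and 454 in NOD 2 (log2 fold change 1.37, SE 0.24, adjusted p = 0.0317). In both genes the NOD libraries were close to each other and apart from B6. Ccnb1, the essential cyclin B of mitosis, had 194 CPM in the B6 library, with 264 in NOD 1 and 313 in NOD 2 (adjusted p = 0.158), and Cdk1, the kinase that these cyclins activate, had 418, 449 and 455 CPM (adjusted p = 0.698).

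The Cdk1 switch is set by the kinase Wee1, which blocks it, and by Cdc25 phosphatases, which open it. Wee1 was the 1 gene of this group with both NOD libraries below B6, at 73.5 CPM in B6 against 31.3 in NOD 1 and 26.7 in NOD 2, a log2 fold change of -1.34 that missed the threshold (SE 0.35, adjusted p = 0.0602). Cdc25b had 1.17 CPM in the B6 library (16 counts), with 5.54 in NOD 1 and 6.41 in NOD 2 (adjusted p = 0.117), and Cdc25c had 41.9, 42.2 and 52.3 CPM (adjusted p = 0.744). Plk1, a kinase that promotes entry into mitosis, had 74.6 CPM in B6 against 103 in NOD 1 and 101 in NOD 2 and did not pass (adjusted p = 0.296).

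Promoters are shown for Ccnb2 and Aurka, which were called, beside Ccnb1 and Cdk1, which act in the same step and were not. Each run is the 120 bases before the transcription start, from RefSeq on GRCm38.p6, the build of the count table, written 5′ to 3′ on the strand of the gene, which is the minus strand for all of them. The windows are chr9:70421555-70421674 for Ccnb2, chr2:172370571-172370690 for Aurka, chr13:100786487-100786606 for Ccnb1 and chr10:69352913-69353032 for Cdk1. Capitals mark matches on either strand to CCAAT, the box bound by NF-Y, to TTTGAA, the CHR element of many mitotic promoters, and to TTGGCGC or TTCGCGC, a form of the E2F site.
Ccnb2: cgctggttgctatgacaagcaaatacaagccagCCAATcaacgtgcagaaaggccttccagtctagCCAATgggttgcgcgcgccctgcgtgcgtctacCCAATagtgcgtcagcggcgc
Aurka: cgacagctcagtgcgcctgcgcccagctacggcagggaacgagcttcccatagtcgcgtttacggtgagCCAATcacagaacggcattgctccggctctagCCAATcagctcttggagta
Ccnb1: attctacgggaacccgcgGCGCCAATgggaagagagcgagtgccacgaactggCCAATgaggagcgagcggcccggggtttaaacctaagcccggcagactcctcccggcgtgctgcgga
Cdk1: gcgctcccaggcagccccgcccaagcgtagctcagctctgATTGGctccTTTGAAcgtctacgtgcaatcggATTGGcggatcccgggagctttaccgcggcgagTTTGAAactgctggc
All of these windows of 120 bases held CCAAT or its complement ATTGG, and that of Cdk1 held TTTGAA. In Ccnb1, an E2F match overlaps a CCAAT box. Farther upstream, within 250 bases, Ccnb2 held TTTGAA 167 bases before the start, and Cdk1 held E2F matches at 178 and 130 bases. Promoter entries were found for 37 of the 50 genes, with 40 start sites because Ccnd3, E2f3 and Mcm7 have 2 each. Within 250 bases before the start, CCAAT was found at 29 of the 40 start sites (72.5%), against 33.8% of 32851 start sites of all genes. TTTGAA was found at 9 (22.5%, against 16.0% of all) and an E2F match at 6 (15%, against 3.14% of all). Among the called genes with an entry, CCAAT was found in Ccnb2, Aurka and Rrm1 and not in Cdk4, Tyms or Birc5. A match of letters is a description and not a site of binding.

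Among the 15 genes of chromosomes, spindle, checkpoint and exit, Birc5 was up-regulated, Incenp was down-regulated (6.67% each, beside 10.3% and 7.39% of all genes) and 13 were not called. The group had 8 genes below B6 in both NOD libraries (beside 39.4% of all genes), 4 above in both (beside 45.3%) and a median log2 fold change of -0.44 (-0.64 without NOD 1 and -0.17 without NOD 2). Its summed level was 3886 CPM in the B6 library, with 3419 in NOD 1 and 3074 in NOD 2. Whether the groups differ from each other was not tested.

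The called genes of this group encode partners in 1 complex, and they went in opposite directions. The chromosomal passenger complex corrects attachments at centromeres and guides the cut between daughter cells, and it consists of the kinase Aurkb, the scaffold Incenp, survivin (Birc5) and borealin (Cdca8). Birc5 (NM_001012273, chromosome 11, 117849237 to 117855743) had 412 CPM in B6 (5607 counts) against 748 in NOD 1 and 900 in NOD 2, a log2 fold change of 1.002 at the 2-fold limit (SE 0.23, adjusted p = 0.0488). Incenp (NM_016692, chromosome 19, 9872297 to 9899533) had 166 CPM in the B6 library (2264 counts), with 52.8 in NOD 1 and 30.1 in NOD 2, and fell by 2.002 in log2 units (SE 0.42, adjusted p = 0.0408). Aurkb had 41.2 CPM in B6 against 108 in NOD 1 and 75.2 in NOD 2, a log2 fold change of 1.16 that did not pass (adjusted p = 0.0990), and Cdca8, from the wider list of cell cycle genes, had 292, 361 and 395 CPM (adjusted p = 0.267). Per length, Birc5 stood at 2.32 times the level of Incenp in B6, 13.3 times in NOD 1 and 28.0 times in NOD 2.

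The spindle checkpoint, which holds anaphase until all chromosomes are attached, was represented by Bub1, Bub1b and Mad2l1, none of which was called. Bub1, a kinase of the kinetochore, had 66.4 CPM in the B6 library, with 113 in NOD 1 and 144 in NOD 2 (log2 fold change 0.95, adjusted p = 0.0993). Bub1b, which encodes BubR1, had 138 CPM in B6 against 73.8 in NOD 1 and 64.5 in NOD 2 (log2 fold change -0.999, adjusted p = 0.0724). The pair lay on opposite sides of B6 in both NOD libraries, and the ratio of Bub1 to Bub1b per length was 0.407 in B6, 1.29 in NOD 1 and 1.89 in NOD 2. Mad2l1, which encodes the checkpoint protein Mad2, had 93.5, 136 and 159 CPM (adjusted p = 0.156). Cdc20, the activator of the anaphase-promoting complex that the checkpoint restrains, had 445 CPM in the B6 library, with 263 in NOD 1 and 282 in NOD 2 (adjusted p = 0.0797), and Ube2c, its ubiquitin-conjugating enzyme, had 743, 429 and 383 CPM (log2 fold change -0.87, adjusted p = 0.0509).

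Top2a, the topoisomerase that untangles sister chromatids, had 574 CPM in B6 against 307 in NOD 1 and 159 in NOD 2 (log2 fold change -1.30, SE 0.41, adjusted p = 0.0889). Mki67, the proliferation antigen that coats mitotic chromosomes, had 132 CPM in the B6 library, with 136 in NOD 1 and 58.9 in NOD 2 (adjusted p = 0.557). In Mki67 the NOD libraries fell on either side of B6, so that no direction can be given. The motor proteins Kif11, Kif20a and Kif23, the kinetochore motor Cenpe and the centromeric histone Cenpa had log2 fold changes between -0.44 and 0.12, with adjusted p values from 0.214 to 0.885.

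**Figure D4:**
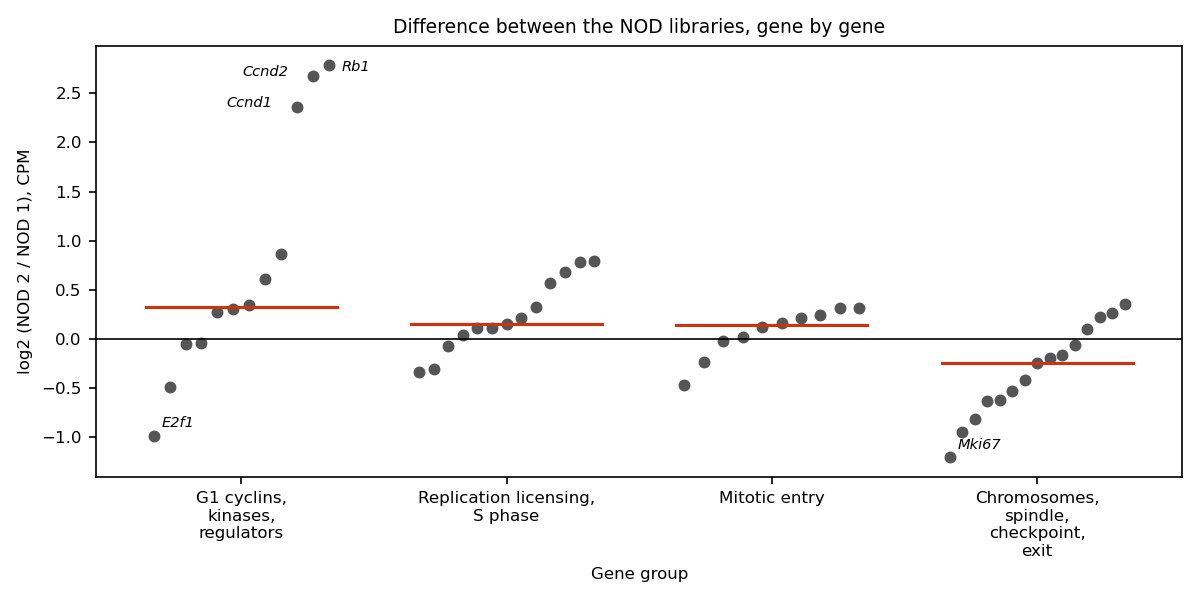
Log2 ratio of NOD 2 to NOD 1 for each gene in the 4 role groups, with genes in order of value inside a group, a red line at the median of the group and names beside the most distant genes. Rb1, Ccnd2 and Ccnd1 lie more than 2-fold above 0 and Mki67 more than 2-fold below, and 11 of the 15 genes of chromosomes, spindle, checkpoint and exit lie below 0. The share of all genes tested that lie below 0 was not counted.

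The NOD libraries also differed from each other, and this spread sets what the comparison with B6 can show. For the 50 genes the median difference between NOD 1 and NOD 2 was 0.31 on the log2 scale, and 4 genes (8%) differed by more than 2-fold. Among the 13352 tested genes with a count in both NOD libraries the median was 0.43, and 21.7% differed by more than 2-fold. Ccnd1 was 5.14-fold, Ccnd2 6.41-fold and Rb1 6.90-fold higher in NOD 2, whereas Mki67 was 2.30-fold higher in NOD 1. Of the genes of chromosomes, spindle, checkpoint and exit, 4 of 15 were higher in NOD 2, with a median log2 ratio of -0.25. In the other groups it was 8 of 12 genes of G1, 10 of 13 of replication and 7 of 10 of mitotic entry, with medians of 0.33, 0.16 and 0.14. The same count and signed median were not taken over all genes tested, so these values have no background beside them.

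Per length, the order of levels within a library was headed by Ube2c in B6, with 805 RPKM (CPM per kilobase), followed by Rrm2 (434), Cdc20 (251), Gmnn (232) and Cenpa (208). The NOD order was headed by Gmnn (491 and 547 RPKM in NOD 1 and NOD 2), Rrm2 (351 and 562), Ube2c (465 and 415), Aurka (365 and 453) and Cdk4 (304 and 367). Neighbours at the head of the NOD order overlapped between the libraries and cannot be ranked. At the foot stood Cdk6, Cdc25b, Ccnd2, Rb1 and E2f3, all under 2.1 RPKM in every library.

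Reads were counted on both strands together, so that reads from a gene and an overlapping neighbour cannot be told apart. Cdk4 shares 29.5% of its 50-base words with transcripts of Tspan31, Ccne2 18.0% with Ints8 and Ccna2 15.9% with Exosc9. These neighbours were themselves up-regulated, with log2 fold changes of 2.06, 1.73 and 1.40 and adjusted p values of 0.0217, 0.0493 and 0.0334, and their part in the values of Cdk4, Ccne2 and Ccna2 was not tested. Bysl, with which Ccnd3 shares 16.1% of its words, was down-regulated (log2 fold change -1.09, adjusted p = 0.0468), and its part in the values of Ccnd3 was not tested. Aurka, Ccnb2, Incenp and Rrm1 shared no word with another gene, and Gmnn and Birc5 shared 1.5% each. Tyms shared 11.0%, with Tyms-ps and Vmn1r-ps144 among others. Among genes that were not called, the share was 42.1% for Ccnb1, 31.8% for Pcna, 31.2% for Kif20a, 27.2% for Ccnd1 and 23.5% for Ccnd3.

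A wider list of 115 other cell cycle genes was read beside the 50, of which 113 were in the table and 112 were tested. In NOD, 19 of them (17.0%, beside 10.3% of all genes) were up-regulated and 8 (7.14%, beside 7.39%) were down-regulated, and their median log2 fold change was 0.35, beside 0.26. Of the CDK inhibitors, Cdkn1a, which encodes the p53 target p21, had 389 CPM in B6 (5305 counts) against 108 in NOD 1 and 66.5 in NOD 2, and fell by 2.16 in log2 units (SE 0.35, adjusted p = 0.0282). Cdkn2d, which inhibits Cdk4 and Cdk6, had 7.78, 38.4 and 30.3 CPM and rose by 2.14 (SE 0.46, adjusted p = 0.0437). Cdkn2a was at 0 in every library.

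The lists that follow are short, and their counts stand beside the same 10.3% of all genes up-regulated and 7.39% down-regulated. Of 17 further pocket protein, E2F and DREAM genes, Lin37 was up-regulated and Foxm1 was down-regulated. Foxm1, a transcription factor of G2 and mitosis genes, had 79.3 CPM in the B6 library, with 19.6 in NOD 1 and 13.2 in NOD 2 (log2 fold change -2.28, SE 0.41, adjusted p = 0.0327). Of 28 genes for origin recognition, the replicative helicase and polymerases, Orc1, Orc4, Gins4, Rfc3 and Rfc4 were up-regulated and Pold1, Rfc1 and Lig1 were down-regulated (17.9% and 10.7%). Orc1, the largest origin recognition subunit, rose most of these, from 7.56 CPM in B6 to 34.3 in NOD 1 and 65.3 in NOD 2 (log2 fold change 2.72, adjusted p = 0.0449), and DNA ligase Lig1 fell from 368 CPM to 134 and 120 (log2 fold change -1.54, adjusted p = 0.0257).

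Of 20 genes for the anaphase-promoting complex and SCF ubiquitin ligases, Anapc10, Cdc26, Skp1a and Cul1 were up-regulated and Fbxw7, the SCF receptor for cyclin E, was down-regulated (34.4 CPM in B6 against 8.20 in NOD 1 and 4.73 in NOD 2, adjusted p = 0.0449). Of 20 kinetochore and checkpoint genes, Nuf2, Mis12, Cenpk and Bub3 were up-regulated and Cenpt was down-regulated. Of 16 cohesin, condensin and separase genes tested, Smc3, Stag2 and Pttg1 were up-regulated and the condensin subunit Ncapd2 fell by 2.76 in log2 units (adjusted p = 0.0212). Securin (Pttg1), which holds separase inactive until anaphase, had 154 CPM in the B6 library, with 669 in NOD 1 and 724 in NOD 2 (log2 fold change 2.18, SE 0.23, adjusted p = 0.0204). Of 5 checkpoint kinase genes tested, Chek1 was up-regulated, from 29.6 CPM to 105 and 124 (log2 fold change 1.96, adjusted p = 0.0312).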

How the data were processed

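Low-input RNA-Seq of mouse blastocysts was analysed in 3 libraries, 1 from B6 and 2 from NOD, grouped by the strain in the labels. The authors made cDNA with SMART-Seq v4 (19 PCR cycles) and read 50 bases from a single end. STAR placed the reads on mm10, and HOMER counted those on exons of RefSeq genes, both strands together and 1 transcript per gene. The deposited values are these raw counts, without normalization; the table also lists transcript length. The version of STAR is 2.2.0c in the submitters' processing notes, and the methods of the study name another.

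Genes were kept by filterByExpr (minimum count 10, 14456 genes), scaled by TMM factors (1.09, 0.975 and 0.941 for B6, NOD 1 and NOD 2) and tested with edgeR 4.0.16 in R 4.3.3 by the quasi-likelihood test with trended dispersion. Calls needed an adjusted p under 0.05 (Benjamini-Hochberg) and a 2-fold change. There is 1 residual degree of freedom, with 3.78 prior degrees, and B6 is assumed to vary like NOD. Nothing states that the NOD libraries came from separate litters. Log2 fold changes are NOD minus B6, with a prior count of 0.125, and SE is |log2 fold change| over the root of F. RPKM is CPM per kilobase of listed length. Intervals and floors cover counting error only, because PCR copies are not separate molecules. Alternatives used DESeq2 1.42.0, limma 3.58.1, other scaling, other filters, another dispersion and each NOD library left out. Words of 50 bases were compared with GENCODE M21 transcripts on GRCm38. Symbols of 2 genes of the wider list, Sgol2a and Claspn, were not found in the table. All members are named, and of the wider list each gene called. Members and lists were chosen with earlier results of these data known.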

Additional observations from a re-analysis of the deposited data

How the results depend on the processing

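No paired analysis was possible because B6 has 1 library, so that the groups share fewer than 2 replicate numbers. Over all genes, 1483 rose and 1069 fell as reported. DESeq2 called 2365 up and 1887 down, and in edgeR 1722 fell with a minimum count of 50 and 701 with upper-quartile factors. No gene passed in either direction with limma-voom (3924 with an unadjusted p under 0.05, smallest adjusted p 0.0501) or in edgeR with genes of low count kept (5568 with an unadjusted p under 0.05), and so no member did. Scaling by total counts only moved the all-gene median of the log2 fold change from 0.26 to 0.07 and the share of calls that were up from 58.1% to 47.8%, and among members from 80% to 42.9%, with 3 up and 4 down. Members numbered 2 up and 0 down with upper-quartile factors (21 with an unadjusted p under 0.05). Down-regulated members numbered 5 with a minimum count of 50, 7 with DESeq2 and 5 with 1 dispersion for all genes, the last chosen after seeing the data. The other counts were within 1.5 times those reported.

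The median log2 fold change of the members was 0.056 with DESeq2's size factors in edgeR and 0.056 with DESeq2, and it turned to -0.095 with total counts only. With total counts only it was -0.67 for the G1 group, -0.12 for replication, 0.44 for mitotic entry and -0.62 for the spindle group. For the other cell cycle genes it was 0.17. The replication median thereby changed sign from the reported 0.07. Leaving out a NOD library gave 0.07 to 0.12 for the members, -0.44 to -0.21 for G1, -0.24 to 0.39 for replication, 0.58 to 0.68 for mitotic entry, -0.64 to -0.17 for the spindle group and 0.24 to 0.46 for the other genes. Total counts also reversed Rrm2 (-0.12), Cdk1 (-0.071), Cdc25c (-0.016), Cenpe (-0.061) and Kif20a (-0.13), none of them called. This scaling moved the median over all genes by -0.19, and a shift of that size turns values slightly above 0 negative. The gap of the member median to the all-gene median stayed at -0.17. Of the 10 called members, Aurka and Ccnb2 kept the call in 6 of 8 tested alternatives and Birc5 in 2. The cause of these changes was not tested. Depth limits Cdk6 and Cdc25b, with 3 and 16 counts in B6, and Rb1 and Ccnd2, with 10 and 5 counts in NOD 1.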

Other observations

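Fold change moved weakly with transcript length among the 50 genes. Spearman's rho between the log2 fold change and the listed length was -0.32 across the 50 genes and -0.18 across all 14456 genes tested, where the genes share 3 libraries and are not independent replicates. The 8 up-regulated members had a median length of 2382.5 bases (968 to 3801), the 2 down-regulated members 3586.5 (3197 to 3976) and the 40 members that were not called 2985 (923 to 10059). The part of length in the calls was not tested.

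The balance of transcripts between partners of a complex or step is given here as values without a test. The level of Ccnb2 per length was 1.29 times that of Ccnb1 in B6, 2.30 times in NOD 1 and 2.18 times in NOD 2. Rrm2 stood at 3.64 times the level of Rrm1 in B6, 6.60 times in NOD 1 and 9.09 times in NOD 2, and Aurka at 5.58 times the level of Tpx2 in B6, 8.04 times in NOD 1 and 13.8 times in NOD 2. Ccnb1 stood at 0.573 times the level of Cdk1 in B6, 0.728 times in NOD 1 and 0.850 times in NOD 2, and Aurka at 6.47 times the level of Aurkb in B6, 6.56 times in NOD 1 and 11.7 times in NOD 2.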
